A study of Homo sapiens with 4 samples.

Results

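The 10 genes described here (PLA2G4A, PLA2G2A, PTGS1, PTGS2, PTGES, PTGES2, HPGD, ALOX5, ALOX12 and LTA4H) encode enzymes that release arachidonic acid, make or inactivate prostaglandins, or act on the lipoxygenase and leukotriene branch. They were chosen by name, and each matched 1 of the 61544 genes in the count table. Arachidonic acid is held in membrane phospholipids until a phospholipase A2 frees it. The cyclooxygenases PTGS1 and PTGS2 turn the free acid into prostaglandin H2, terminal synthases such as PTGES and PTGES2 make prostaglandin E2 from it, and HPGD inactivates the product. On the other branch, the lipoxygenases ALOX5 and ALOX12 oxygenate the acid, and LTA4H completes the leukotriene B4 that draws neutrophils. In the colon, prostaglandin E2 supports the epithelium and its repair, PTGS2 is known as the cyclooxygenase that inflammation and tumours induce, and loss of HPGD is a known trait of colorectal cancers.

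The libraries came from 2 human colorectal cancer lines of epithelial origin. HT29 cells and HCT116 cells were each sequenced once after LPS (lipopolysaccharide, an outer membrane component of Gram-negative bacteria, at 1 ug/mL for 24 h) and once as a control, which gives 4 libraries and no repeat culture of any condition. Each line is 1 established culture, and the study set them side by side because their basal level of the glucocorticoid receptor GR differs. NR3C1, the gene of GR, had 0 counts in the HT29 LPS library and 1 in the HT29 control, against 560 in the HCT116 LPS library and 615 in the HCT116 control. The gene counts summed to between 19105058 and 21268959 per library, and mitochondrial transcripts took between 3.75% and 7.16% of them. The epithelial markers EPCAM, CDH1, KRT8, KRT18 and KRT19 had at least 1676 counts in each library, while KRT20 had 0 in all of them. Markers of differentiated intestinal epithelium split the lines. VIL1 had 3004 and 2637 counts in HT29 with LPS and without against 0 and 4 in HCT116, LGALS4 had 8299 and 7005 against 10 and 0, CEACAM5 had 490 and 428 against 0 in both, CDX1 had 17 and 3 against 0 in both, and CDX2 ran the other way, with 39 and 18 against 572 and 474. The pan-leukocyte marker PTPRC had 2 counts in the HT29 LPS library and 0 in the others, and the leukocyte marker SPI1 was at 0 throughout. The leukocyte list still summed to 1051 and 1036 CPM in the LPS and control libraries of HT29, against 2.17 and 2.12 CPM in those of HCT116, where LYZ had 20709 and 18532 counts in HT29 with LPS and without and 0 in HCT116, and 5 of its 13 genes were at 0 in every library. The 10 stromal markers summed to 6.09 and 7.93 CPM in HT29 with LPS and without, and to 105 and 107 CPM in HCT116. In HCT116 COL1A1 had 1999 and 2225 counts, while COL1A2, DCN and PDGFRA had 0 in every library.

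The start regions of PTGS2, HPGD and PTGES are shown because these genes carry the contrast between the lines described next, PTGS2 and HPGD being higher in HT29 and PTGES in HCT116. Each sequence is the 250 bases before the RefSeq start (GRCh38.p14, minus strand in each case), at chr1:186680424-186680673 for PTGS2, chr4:174522489-174522738 for HPGD and chr9:129753043-129753292 for PTGES. Capitals mark every match, on either strand, to TATAAA (the TATA box), GGGCGG (a GC box), GGGNNNNNCC (the outer frame of a κB site) or TGACG (the core of a cAMP response element).
PTGS2: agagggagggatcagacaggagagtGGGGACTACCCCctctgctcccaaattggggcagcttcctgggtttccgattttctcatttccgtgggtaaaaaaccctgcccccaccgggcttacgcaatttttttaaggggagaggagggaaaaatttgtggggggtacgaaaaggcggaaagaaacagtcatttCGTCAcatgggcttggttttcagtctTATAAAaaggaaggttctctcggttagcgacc
HPGD: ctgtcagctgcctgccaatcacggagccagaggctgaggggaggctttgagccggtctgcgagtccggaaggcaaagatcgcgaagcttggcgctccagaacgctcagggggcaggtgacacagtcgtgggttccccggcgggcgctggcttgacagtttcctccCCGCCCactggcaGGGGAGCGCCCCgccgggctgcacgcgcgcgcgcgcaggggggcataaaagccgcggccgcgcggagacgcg
PTGES: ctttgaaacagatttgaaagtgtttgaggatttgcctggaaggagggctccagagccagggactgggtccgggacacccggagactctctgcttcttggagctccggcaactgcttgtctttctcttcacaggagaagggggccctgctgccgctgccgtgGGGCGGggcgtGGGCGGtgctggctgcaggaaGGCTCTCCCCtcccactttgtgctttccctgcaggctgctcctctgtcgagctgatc
The PTGS2 window had TATAAA beginning 32 bases before the start, TGACG read on the other strand at 58 bases, and 3 overlapping GGGNNNNNCC frames at 225, 224 and 223 bases. The HPGD window had GGGCGG on the other strand at 85 bases and 3 overlapping frames at 72, 71 and 70 bases, with no TATAAA or TGACG. The PTGES window had GGGCGG at 89 and 78 bases and 1 frame at 57 bases. Such letters are common. Of 35116 promoter windows of the same length, 10.7% held TATAAA, 42.6% GGGCGG, 54.4% GGGNNNNNCC and 21.2% TGACG, and a match is no evidence of a bound factor.

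Apart from ALOX5 and ALOX12, the level of these enzymes differed more between HT29 and HCT116 than between LPS and control. HT29 had more RNA of both cyclooxygenases, of the cytosolic phospholipase PLA2G4A and of the prostaglandin-inactivating enzyme HPGD. HCT116 had more of the inducible synthase PTGES and of LTA4H. CPM stands for counts per 1000000 of the TMM-normalized library size. Of the 9 members that averaged 1 CPM or more, 6 were called higher and 2 lower in HT29. The calls are from edgeR's quasi-likelihood test with LPS as a block and Benjamini-Hochberg adjustment over all genes at 0.05. Over all 14516 genes tested, 38.0% were called higher and 38.6% lower, so that a call is the usual outcome for any gene in this comparison. The median log2 fold change of HT29 over HCT116 was 1.76 for the 9 members and -0.02 for all genes. The test uses the LPS and control libraries of a line as its replicates, with 1 residual degree of freedom, and speaks to these cultures only. It also borrows spread across all tested genes, so its p-values do not rest on a gene's own libraries alone.

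**Figure D1:**
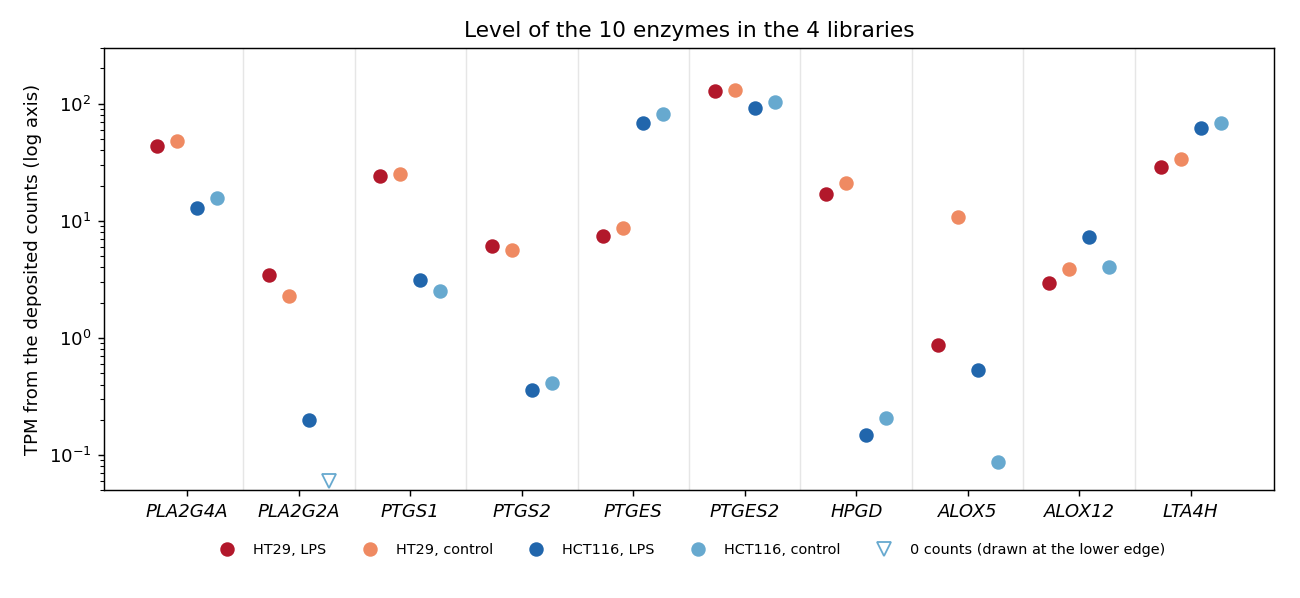
TPM (transcripts per 1000000, log axis) of the 10 enzymes in each of the 4 libraries, 1 point per library, ordered from phospholipases to lipoxygenases and LTA4H. PTGS1, PTGS2 and HPGD sit higher in both HT29 libraries and PTGES in both HCT116 libraries, while ALOX5 is spread from 0.0872 to 10.9 TPM, and the open triangle marks 0 counts of PLA2G2A.

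Among the phospholipases that release arachidonic acid, PLA2G4A (chr1:186828949-186988981, plus strand, hg38) encodes the calcium-dependent cytosolic enzyme. It had 742 counts in each HT29 library, and 225 counts in the HCT116 LPS library and 279 in its control. The HT29 libraries lay above both HCT116 libraries, by 3.38-fold (log2 fold change 1.76 ± 0.129 SE, edgeR adjusted p = 1.29e-10). PLA2G2A, the secreted phospholipase of Paneth cells and mucosal defence, was sparse, with 33 and 20 counts in the LPS and control libraries of HT29 against 2 and 0 in those of HCT116. It averaged under 1 CPM over the libraries and was not tested. Its summed counts gave a ratio of 30.3 for HT29 over HCT116, with a 95% counting interval of 7.98 to 257.

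Both cyclooxygenases were higher in HT29. PTGS1 (chr9:122370530-122395703, plus strand), the constitutive enzyme, had 24.2 and 25.1 TPM in the LPS and control libraries of HT29, against 3.12 and 2.53 TPM in those of HCT116. The difference was 9.21-fold (log2 fold change 3.20 ± 0.157 SE, edgeR adjusted p = 1.96e-13). PTGS2 (chr1:186671791-186680922, minus strand), the inducible enzyme, had 6.08 and 5.60 TPM in HT29 with LPS and without, against 0.359 and 0.415 TPM in HCT116. These are 197 and 166 counts in HT29 against 12 and 14 in HCT116, a difference of 15.8-fold (log2 fold change 3.98 ± 0.328 SE, edgeR adjusted p = 8.67e-10). In each line and condition PTGS1 stood above PTGS2 on the TPM scale. The antisense RNA PACERR overlaps 3.99% of the PTGS2 exon bases and had at most 4 counts in any library.

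PTGES and PTGES2, the prostaglandin E synthases among the members, differed in opposite directions. PTGES (chr9:129738331-129753042, minus strand), the membrane-bound synthase that usually works beside PTGS2, had 7.43 and 8.71 TPM in the LPS and control libraries of HT29, against 68.8 and 81.8 TPM in those of HCT116. It was 8.82-fold higher in HCT116 (log2 fold change of HT29 over HCT116 -3.14 ± 0.151 SE, edgeR adjusted p = 1.48e-13). The line with the lower PTGS2 level was therefore the one with the higher PTGES level. PTGES2 (chr9:128120693-128128462, minus strand), a second membrane-associated enzyme of this name, was the most abundant member per length in every library, at 128 and 130.5 TPM in HT29 against 92.4 and 103 TPM in HCT116. Its difference was small and passed the same test (1.40-fold, log2 fold change 0.49 ± 0.0642 SE, edgeR adjusted p = 8.39e-07).

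HPGD (chr4:174490175-174523154, minus strand), which oxidises prostaglandin E2 to an inactive form, differed most of the 9 tested members. It had 557 and 632 counts in the LPS and control libraries of HT29, against 5 and 7 counts in those of HCT116. The libraries of the lines did not come near each other, and the fitted difference was 112-fold (log2 fold change 6.81 ± 0.255 SE, edgeR adjusted p = 2.57e-15). An antisense RNA (ENSG00000251584.2) overlaps 5.68% of the HPGD exon bases and had 2 counts or fewer in each library. HT29 thus held more RNA of the cyclooxygenases and of the breakdown enzyme at once, and HCT116 more of PTGES with little of the breakdown enzyme.

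On the lipoxygenase and leukotriene branch, LTA4H (chr12:96000753-96043520, minus strand), the hydrolase that makes leukotriene B4, was lower in HT29. It had 28.9 and 33.6 TPM in the LPS and control libraries of HT29, against 61.9 and 67.9 TPM in those of HCT116 (log2 fold change -0.98 ± 0.0733 SE, edgeR adjusted p = 1.90e-10). An antisense RNA (ENSG00000257878.3) overlaps 10.9% of the LTA4H exon bases and had 0 counts in every library. ALOX12 (chr17:6996049-7010754, plus strand), the platelet-type 12-lipoxygenase, had 46 and 56 counts in HT29 with LPS and without, and 117 and 66 in HCT116. Scaled for depth, the log2 ratio of HT29 over HCT116 was -1.25 between the LPS libraries (counting interval -1.81 to -0.78) and 0.09 between the controls (interval -0.45 to 0.63), and the line difference did not pass the test (log2 fold change -0.61 ± 0.36 SE, edgeR adjusted p = 0.13). It was called lower in HT29 without the HT29 control library (-0.88, edgeR adjusted p = 0.0336) and without the HCT116 control library (-1.06, edgeR adjusted p = 0.0101), in fits with no LPS block and 1 residual degree of freedom, whose spread comes from the line that kept both libraries.

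ALOX5 (chr10:45374176-45446119, plus strand), the 5-lipoxygenase that starts leukotriene synthesis and is best known from myeloid cells, had 19 counts in the HT29 LPS library and 219 in the HT29 control, against 12 and 2 in HCT116 with LPS and without. The line call for ALOX5 (log2 fold change 3.72 ± 0.797 SE, edgeR adjusted p = 0.000286) was not kept without the HT29 control library. Without it, an alternative picked with its value known, the log2 fold change was 1.54 (adjusted p = 0.0838 from edgeR). That fit had no LPS block and, like the ones for ALOX12, took its spread from the line that kept both libraries, so the lone library is assumed to vary as that line does. Between the LPS libraries alone the log2 ratio was 0.64, with a counting interval of -0.39 to 1.90, and between the controls it was 6.03, with an interval of 5.23 to 10.2. DESeq2 did not call it either (adjusted p = 0.0895), while it called the other 7 members that edgeR called.

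Per length, the order of the members in HT29 ran from PTGES2 (mean of 129 TPM over its LPS and control libraries) through PLA2G4A (45.7), LTA4H (31.2), PTGS1 (24.7), HPGD (19.1), PTGES (8.07), ALOX5 (5.87), PTGS2 (5.84) and ALOX12 (3.43) to PLA2G2A (2.85). The ALOX5 libraries spanned the levels of PTGES, PTGS2, ALOX12 and PLA2G2A, and ALOX12 and PLA2G2A overlapped each other. In HCT116 it ran from PTGES2 (97.5 TPM) through PTGES (75.3), LTA4H (64.9), PLA2G4A (14.3), ALOX12 (5.65), PTGS1 (2.83), PTGS2 (0.387), ALOX5 (0.308) and HPGD (0.177) to PLA2G2A (0.101). There the last 4 members each had at most 14 counts in a library, and the libraries of ALOX5 spanned the levels of PTGS2 and HPGD. TPM was computed from the exon length deposited for each gene, which joins all of its transcripts and can understate the level of a gene with a short main transcript.

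LPS served the study as a model of inflammation in intestinal epithelial cells. Within a line each condition is 1 library, so the log2 ratio of LPS over control is given without a p-value, with a 95% interval that covers counting error only. All 10 members passed a mean of 1 CPM in HT29 and 6 did in HCT116. In HT29, no member lay above a log2 ratio of 0.58 (3.50% of 13201 genes did) and 1, ALOX5, lay below -0.58 (2.70% of genes). In HCT116, 1 of 6, ALOX12, lay above 0.58 (3.56% of 14337 genes) and none below -0.58 (2.34%). The size of 0.58 is the one the study set for its array comparisons. The median log2 ratio of the members was -0.18 in HT29, where that of all genes was -0.01, and -0.03 in HCT116, where that of all genes was 0.00 when rounded.

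**Figure D2:**
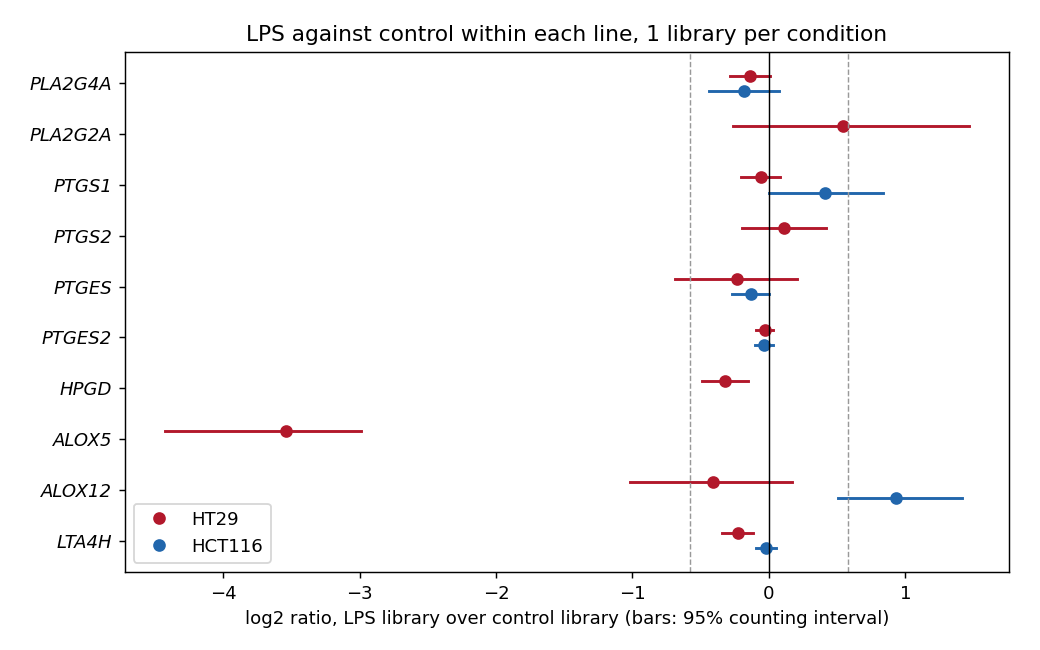
LPS over control on the log2 scale for each member averaging 1 CPM or more in the line, red for HT29 and blue for HCT116, where bars span the 95% counting interval and dashed lines stand at -0.58 and 0.58. ALOX5 in HT29 lies at -3.54, ALOX12 in HCT116 at 0.93, and every other point lies between the dashed lines.

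None of PTGS1, PTGS2, PTGES, PTGES2 and HPGD lay beyond 0.58 in a line where it averaged 1 CPM or more. PTGS2, which NF-κB and other inflammatory factors are known to induce, had 197 counts in the HT29 LPS library and 166 in the control, a log2 ratio of 0.11 with an interval of -0.20 to 0.41. The upper end of that interval lies under 0.58. A list of LPS receptor, adaptor, cytokine and NF-κB genes was set beside it. In the same pair of libraries, 6 of its 12 measured genes lay above 0.58 and 0 below -0.58. Among the 6 was the chemokine gene CXCL1, with 521 counts in the LPS library and 97 in the control. NFKBIA (713 and 732) and NFKB1 (1510 and 1435) did not lie above 0.58, and IL6 and TNF had 0 counts in both libraries. On the same list, TLR4, the receptor for LPS, had 362 counts in the HT29 LPS library and 313 in the control, and 0 in both HCT116 libraries. LY96, also on the list, had 0 counts in both HT29 libraries, and 1 with LPS and 0 without in HCT116. In HCT116, 6 genes of that list were measured and none lay above 0.58. CXCL1 (7 counts with LPS and 19 without), CXCL8 (4 and 15), CXCL2 and CCL20 averaged under 1 CPM there and were not among the 6. The lines are thus not compared on the same genes of the list. PTGS2 had 12 and 14 counts in HCT116 with LPS and without. A change of 2-fold in either direction was not detectable at this depth (interval -1.34 to 1.13).

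HPGD and LTA4H were slightly lower with LPS in HT29. HPGD had 557 counts in the LPS library and 632 in the control (log2 ratio -0.32, interval -0.49 to -0.15), and LTA4H had 1262 and 1345 (log2 ratio -0.23, interval -0.34 to -0.12). With ALOX5, these were 3 of 10 members whose interval lay below 0 in HT29, where 18.5% of all genes had such an interval, and 0 of 10 lay above 0, against 15.9% of genes. In HCT116, 2 of 6 members, PTGS1 and ALOX12, had intervals above 0, against 17.0% of genes, and 0 of 6 had one below, against 18.2%. An interval of this kind away from 0 is thus common in these libraries and does not show an effect of LPS.

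PTGS1 had 828 and 784 counts in HT29 with LPS and without (log2 ratio -0.06, interval -0.20 to 0.08). In HCT116 it had 110 and 90 (log2 ratio 0.41, interval 0.0026 to 0.84). PLA2G4A stayed within counting error in both lines, at -0.14 in HT29 and -0.18 in HCT116, and so did PTGES, at -0.23 and -0.14, and PTGES2, at -0.03 and -0.04. PLA2G2A had 33 counts in the HT29 LPS library and 20 in the control (log2 ratio 0.54, interval -0.26 to 1.46).

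ALOX12 had 117 counts in the HCT116 LPS library and 66 in the control, and it went the other way in HT29, with 46 and 56. The log2 ratios were 0.93 (interval 0.51 to 1.41) in HCT116 and -0.41 (interval -1.02 to 0.17) in HT29. The difference of the 2 log2 ratios, HT29 minus HCT116, was -1.37, with a counting interval of -2.13 to -0.62. Of the 9 members for which this difference could be computed, 4 had an interval below 0 (14.3% of 13722 genes with counts in every library did) and 0 had one above 0 (13.8% of genes), the others below 0 being ALOX5, PTGS1 (-0.48, interval -0.92 to -0.04) and LTA4H (-0.21, interval -0.35 to -0.08). A test of it was not possible, since 4 libraries leave no residual degree of freedom for it. The antisense gene ALOX12-AS1 overlaps 18.5% of the ALOX12 exon bases and had 39 counts in the HCT116 LPS library and 55 in the control, and 43 and 22 in HT29. The library kit does not mark strand, so reads of the pair in the shared part cannot be told apart, and the part of ALOX12-AS1 in the ALOX12 values was not tested.

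ALOX5 had 19 counts in the HT29 LPS library, against 219 in the HT29 control, and was 11.6-fold lower with LPS (log2 ratio -3.54, interval -4.43 to -2.99). Without LYZ, which made up nearly all of the leukocyte sum, the other 12 leukocyte markers summed to 7.66 CPM in the HT29 LPS library and 8.71 CPM in the control. Of these 12, CD14 had by far the most counts in HT29 (137 with LPS and 140 without), and ITGAM came next (10 and 11). In HCT116 ALOX5 had 12 counts with LPS and 2 without (log2 ratio 1.86, interval 0.55 to 5.91). The ALOX5 transcript has a second placement in hg38, on the alternate contig GL383546v1, over 100% of its length at 100% identity, and no source used here says whether the alignment reference held that contig or how reads with several placements were counted. None of the other 9 members had a second placement at 98% identity over 50% of its length.

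Of the 9 other annotated genes on that contig within 1000000 bases of ALOX5, 2 had any count. MARCHF8, a ubiquitin ligase near ALOX5, had 32 counts in each HT29 library (log2 ratio -0.13, interval -0.89 to 0.61), and 110 with LPS and 200 without in HCT116 (log2 ratio -0.72, interval -1.08 to -0.39). OR13A1 had 3 counts in the HT29 LPS library and 0 in the others. The part of the second placement in the ALOX5 values was not tested. The 10 measured genes around ALOX5 that are not on the contig had log2 ratios between -1.10 and 0.44 in HT29. In HCT116 the 11 such genes lay between -0.37 and 0.46.

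**Figure D3:**
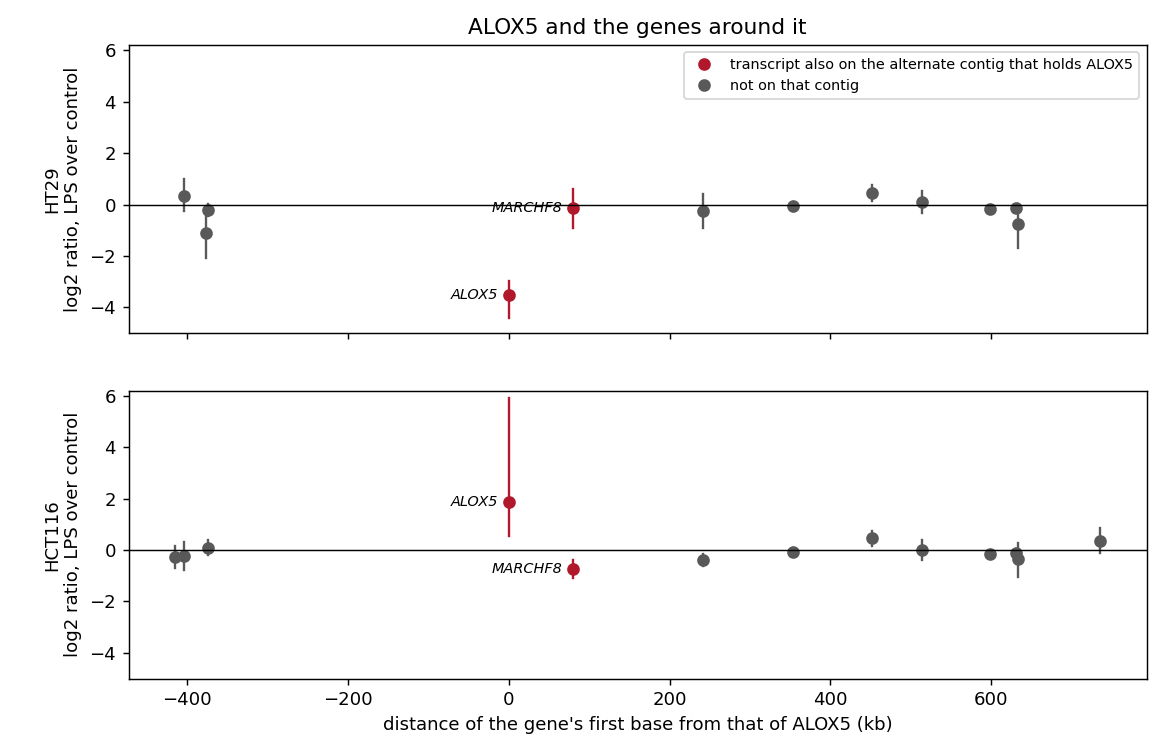
Log2 ratio of LPS over control (95% counting interval as bars) for ALOX5 and the genes around it that average 1 CPM or more in the line, by distance in kb from the first base of ALOX5, in HT29 (top) and HCT116 (bottom). Red points have a second placement on the contig that also holds ALOX5. ALOX5 lies at -3.54 in HT29 and at 1.86 in HCT116, where its mean is under 1 CPM, and no other gene lies below -1.10 or above 0.46.

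When LPS was tested over the 4 libraries with the line as a block, so that the lines stood in for replicates, 0 of 9 members were called higher (0.124% of 14516 genes were) and 0 lower (0.0964%) with edgeR's quasi-likelihood fit. Below an unadjusted p of 0.05 there was 1 member, ALOX5 (log2 fold change -2.11, standard error 0.77, unadjusted p = 0.013, adjusted p = 0.45 from edgeR), although its HCT116 counts ran the other way. DESeq2 called 0 members, with 0 at an unadjusted p under 0.05. Its independent filter left an adjusted p for 2 of them. With no filter on low counts, edgeR called ALOX5 as lower (adjusted p = 0.000407).

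The other genes of the eicosanoid pathway were taken from lists of phospholipases, synthases, lipoxygenases, receptors and enzymes of arachidonate supply. Like the members they separated the lines and showed little movement with LPS. Of 44 such genes averaging 1 CPM or more, 23 were called higher and 19 lower in HT29 (edgeR, median log2 fold change 0.39), against 38.0% and 38.6% of all genes. For LPS over the 4 libraries edgeR called 0 of the 44, with 6 at an unadjusted p under 0.05 (7.58% of all genes had one). DESeq2 called 0, with 5 (5.17% of all genes). Its independent filter left an adjusted p for 9 of the 44, so it could not call the rest. Within HT29, 0 of 33 lay beyond 0.58 in either direction. Within HCT116, 2 of 45 lay above it and 1 below. These were GGT1 (51 counts with LPS and 22 without), GGT5 (39 and 23) and AKR1C3 (22 and 41, interval -1.59 to 0.01). GGT1 and GGT5 cleave glutathione conjugates such as leukotriene C4, and are named after their values were seen. In HT29, AKR1C3 had 2684 counts with LPS and 3187 without (log2 ratio -0.39, interval -0.46 to -0.31). Over the 4 libraries AKR1C3 was not called (edgeR unadjusted p = 0.000343, adjusted p = 0.0921).

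**Figure D4:**
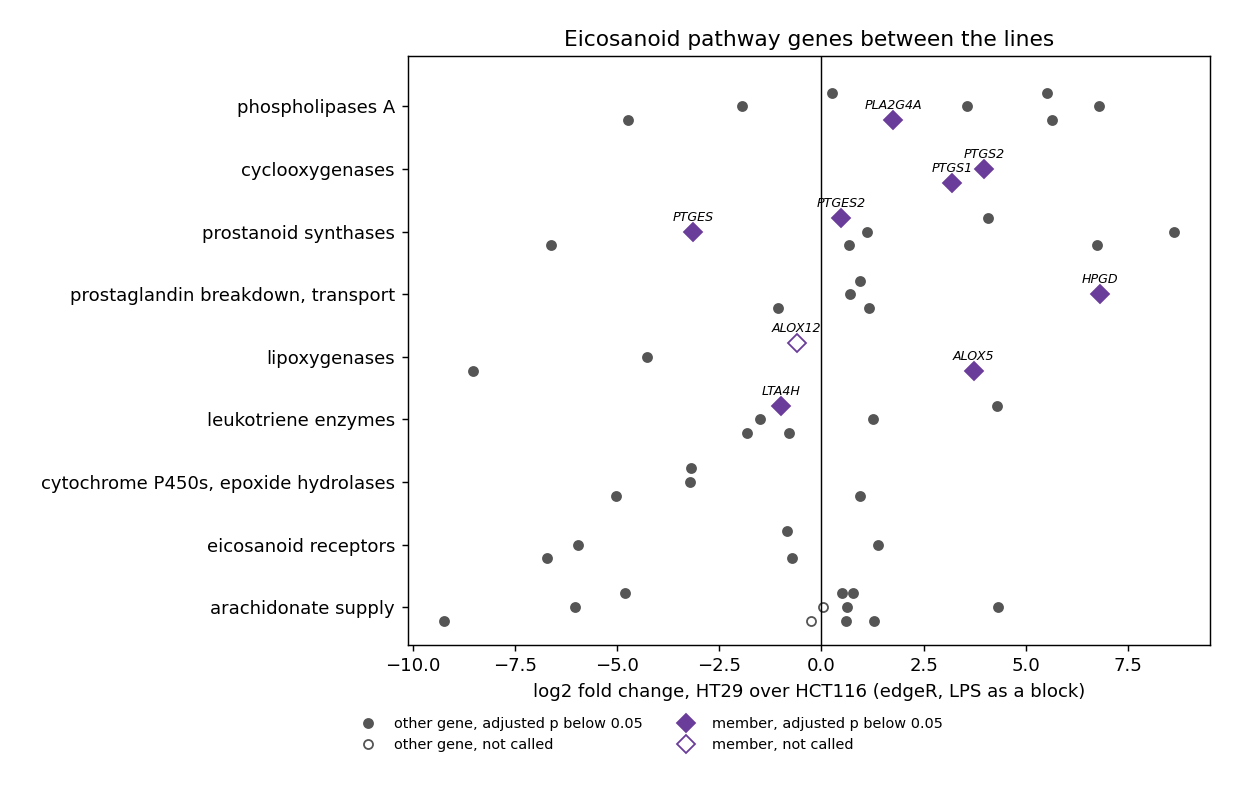
Log2 fold change of HT29 over HCT116 from edgeR for each eicosanoid gene that averages 1 CPM or more, in rows by role, with the members as named diamonds and genes that did not pass an adjusted p of 0.05 as open symbols. The phospholipase, cyclooxygenase and prostanoid synthase rows hold mostly positive values and the cytochrome P450 and receptor rows mostly negative ones.

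By role, 6 of 8 phospholipase A genes were higher in HT29 and 2 lower. Besides PLA2G4A these included PLAAT4 (111-fold) and PLAAT3 (11.8-fold), acyltransferases with phospholipase activity, and PLA2G4F (46.3-fold), a cytosolic relative of PLA2G4A. PLAAT3 had 5940 and 6027 counts in HT29 with LPS and without, against 553 and 610 in HCT116. Of 8 prostanoid synthases, 6 were higher in HT29 and 2 lower. CBR1, a carbonyl reductase that can convert prostaglandin E2 to F2α, had 755 and 716 counts in HT29 against 2 in each HCT116 library. AKR1C3, a prostaglandin F synthase, was 108-fold higher in HT29, and AKR1B1, an aldose reductase that also makes prostaglandin F2α, was 97.6-fold lower, with 9 and 15 counts in HT29 against 1255 and 1457 in HCT116.

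Of 5 genes of prostaglandin breakdown and transport, 4 were higher in HT29, beside HPGD the exporter ABCC4 (2.22-fold) and the reductases PTGR3 (1.92-fold) and PTGR1 (1.63-fold). Of 6 leukotriene enzymes, 2 were higher in HT29 and 4 lower. DPEP1, the dipeptidase that makes leukotriene E4, was 19.6-fold higher, MGST2, a microsomal transferase that can make leukotriene C4, was 2.40-fold higher, and MGST3 was lower by 0.80 on the log2 scale. Of 4 cytochrome P450 and epoxide hydrolase genes, 3 were lower in HT29, namely the soluble epoxide hydrolase EPHX2 (13 and 4 counts against 282 and 363), CYP2U1 and CYP4F3. Of 5 eicosanoid receptors, 1 was higher, PPARG (2.62-fold), a nuclear receptor for prostaglandin metabolites, and 4 were lower, among them LTB4R, the leukotriene B4 receptor (log2 fold change -0.71). The adjusted p of each gene named here was at most 2.61e-05 (edgeR).

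The genes that make arachidonic acid from shorter fatty acids were lower in HT29. ELOVL5, the elongase of the route, had 5 counts in the HT29 LPS library and 0 in the control, against 1688 and 1929 in HCT116. FADS1, the desaturase of its last step, had 126 and 100 counts in HT29 with LPS and without, against 3446 and 3757 in HCT116 (log2 fold change -4.80). FADS2, which acts first, had 10 and 8 counts in HT29 against 660 and 694 in HCT116 (log2 fold change -6.03). The remaining genes of the supply list ran the other way or did not differ. Of 11 supply genes, 6 were higher in HT29, 3 were lower, and 2, ACSL4 (log2 fold change 0.04) and ABHD6 (-0.25), did not pass the test. In bulk RNA, fewer cells with a transcript and less of it per cell cannot be told apart.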

How the data were processed

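RNA of HT29 and HCT116 cells, 1 LPS and 1 control library each, was measured by RNA sequencing. The deposited values are raw counts per gene. Before deposit, the authors cleaned the reads, mapped them with HISAT2 2.1.0 on hg38 and made the count table over GENCODE genes with featureCounts 2.0.1; their processing notes also name cutadapt 1.9 and Trimmomatic 0.39. Which strand and multi-mapping options and which annotation release they used is not given in the sources used here. A second deposited column holds the exon length of each gene. Symbols and positions came from GENCODE 44 on hg38, in which all 10 member identifiers had the same version.

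Counts were TMM-normalized in edgeR 4.0.16 (R 4.3.3). Log2 ratios within a line used a prior count of 2 and genes averaging 1 CPM or more in it. The 95% intervals are exact (Clopper-Pearson), carry no prior count, and for the difference between the lines come from a conditional odds ratio. They cover counting error only and leave out the spread between cultures, since each condition is 1 library. Reads are not independent molecules, so the intervals can be too narrow even for that error. Both tests used edgeR's quasi-likelihood fit over genes averaging 1 CPM or more, Benjamini-Hochberg adjusted, and were tested on simulated data. The SE of an edgeR log2 fold change was derived here, as its absolute value over the square root of the test's F statistic. DESeq2 1.42.0, other normalizations, prior counts, filters and thresholds, no block, and removal of length and GC trends (mgcv 1.9.3) were the alternatives. Transcripts were placed on hg38 with minimap2 2.31. Promoter sequences are from RefSeq (GRCh38.p14), which matched 9 members and not ALOX5. For PTGS1 no listed start matched the GENCODE one, and it was not printed.

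The members and lists were chosen with earlier results of these data known. All 10 members are named. Of the other genes, up to 3 per list with a mean of at least 5 CPM and the largest difference between the lines, and any past 0.58 in a line at that level, are named, besides NR3C1, genes that overlap a member, and the pair GGT1 and GGT5, picked once their values were known.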

Additional observations from a re-analysis of the deposited data

Results flagged for a closer look

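ALOX5 had LPS ratios of opposite sign in the 2 lines, with both counting intervals away from 0. Its log2 ratio of LPS over control was -3.54 in HT29 (19 counts with LPS against 219 in the control) and 1.86 in HCT116 (12 against 2). That difference was not tested, since each condition is 1 library and no residual degree of freedom is left. The counting interval of the difference, HT29 minus HCT116, ran from -9.62 to -4.01 on the log2 scale. The transcript has a second placement on an alternate contig, and its part in these counts was not tested.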

How the results depend on the processing

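The test of LPS over the 4 libraries sets LPS beside control within each line, with the line as a block, and the fit with no block is its unpaired form. No further pairing by replicate was possible, since each condition of each line is 1 library. The 9 alternatives for the LPS ratios and the 6 for each test turned the direction of no member past 0.58 or called, and ALOX5 in HT29 stayed below -0.58 in all that measured it. In HCT116, ALOX12 was the 1 member above 0.58, and the count became 3 with no filter on low counts (ALOX5 and PLA2G2A joining it at 12 and 2 counts or fewer), 0 with a minimum of 5 CPM, which ALOX12 does not reach, and 0 at a threshold of 1. The counts over all genes were 4967 higher and 3904 lower in HT29 with no filter, 60 and 73 with a minimum of 5 CPM, and 136 and 83 at a threshold of 1. In HCT116 they were 3884 and 3674 with no filter, 73 and 42 with a minimum of 5 CPM, and 119 and 89 at a threshold of 1. For LPS over the 4 libraries, the genes called higher and lower numbered 45 and 36 with DESeq2, 6 and 8 with its size factors in edgeR, 58 and 45 with no filter, 78 and 58 with a minimum of 5 CPM, and 0 and 0 with no block. With no filter 1 member, ALOX5, was called lower. PTGS1 changed sign with no block, to -0.013 on the log2 scale, with neither value called. The cause of these shifts was not tested beyond the number of genes each filter keeps. For HT29 over HCT116, leaving out each library in turn, added after the data were seen, gave 5 to 6 members higher and 2 to 3 lower. These fits had no block and 1 residual degree of freedom, so the lone library of a line is assumed to vary like the line with both. ALOX5 lost its call without the HT29 control library and with DESeq2, and ALOX12 was called lower without the HT29 control (log2 fold change -0.88) or the HCT116 control (-1.06). Members with under 20 counts in a library, in HCT116 PTGS2, HPGD, ALOX5 and PLA2G2A, had counts that could show no change of less than 2-fold.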
